A study of Mus musculus with 4 samples.

Results

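Mural cells are the pericytes and smooth muscle cells that wrap blood vessels, and 7 genes in wide use as their markers were followed here: Myh11, Notch3, Pdgfrb, Vtn, Rgs5, Cspg4 and Abcc9. They were taken by symbol from the 53465 genes in the count files, and all 7 were found once and passed the filter on low counts. The counts came from ventricles of mice at postnatal day 1. The 2 control libraries were from Ctnnb1 floxP/floxP mice negative for alphaMHC-Cre, and the 2 libraries titled CKO/CKO, here called CKO, were from Ctnnb1 floxP/floxP mice positive for it. The alphaMHC promoter drives Cre in cardiomyocytes, so the labels place the deletion in a cell type other than the one these genes mark. All 4 libraries share the floxed alleles, and the groups differ by the transgene as well as by the deletion. No label says that the libraries are from separate animals, so p-values measure only the spread between these libraries.

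Endothelial cells attract mural cells by releasing PDGF-B, which acts on the receptor encoded by Pdgfrb. Contact with the endothelium then engages Notch3, the main Notch receptor of mural cells, which helps to keep smooth muscle cells mature. Rgs5 damps signalling from G-protein-coupled receptors, Cspg4 encodes the surface proteoglycan NG2, Vtn the matrix protein vitronectin, Abcc9 the SUR2 subunit of ATP-sensitive potassium channels and Myh11 the smooth muscle myosin heavy chain. None is limited to mural cells: cardiomyocytes use Abcc9, fibroblasts can express Pdgfrb, and hepatocytes are the main source of vitronectin in blood.

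The libraries held between 34027143 and 45651797 counts in genes. Levels are given as CPM, read counts relative to library depth with TMM scaling, unless stated. Some properties moved with the groups, and others marked 1 library. Reads without a unique alignment made up 19.4% and 21.0% of counted reads in controls 1 and 2, and 23.9% and 29.7% in CKO libraries 1 and 2. Mitochondrially encoded genes took 5.25% and 7.65% of the counts in controls 1 and 2 and 10.2% and 14.4% in CKO libraries 1 and 2. T cell and thymocyte markers summed to 332 CPM in control 1 and to 1.32 to 6.29 CPM in the other 3. Xist, the RNA of the inactive X chromosome, was at 602 CPM in CKO 2 and at most 0.327 CPM elsewhere, and the Y-linked Kdm5d had 0 counts in CKO 2 and 37.4 to 42.4 CPM elsewhere, so CKO 2 alone had a female pattern. Ctnnb1 itself measured 409 and 434 CPM in the controls against 527 and 460 CPM in the CKO libraries. Its count covers the whole gene in all cells of the ventricle, so it does not check the genotype labels.

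All 7 markers were expressed in every library. Their levels per length were set over the exons of GENCODE vM21, as RPKM computed from the TMM-scaled counts. Rgs5 led in the controls at 43.5 and 51.9 RPKM, followed by Abcc9 at 37.7 and 37.1 and Pdgfrb at 21.0 and 19.7. Notch3 followed at 9.85 and 9.69 RPKM, Cspg4 at 7.80 and 6.26, Myh11 at 3.63 and 4.28 and Vtn at 2.46 and 2.71. No neighbours in this order overlapped between the 2 controls. In the CKO libraries Rgs5, at 44.5 and 45.5 RPKM, overlapped with Abcc9 at 45.3 and 23.2. Notch3, at 6.49 and 4.38, overlapped there with Cspg4 at 6.38 and 6.45. Myh11 and Vtn, which were lowest in the controls, were also lowest there, at 2.68 and 2.35 and at 1.13 and 0.417 RPKM.

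The genes lie on 7 chromosomes in GRCm38. Myh11 spans 14194535 to 14291372 on chromosome 16, Pdgfrb 61045150 to 61085061 on chromosome 18, Rgs5 169655501 to 169695813 on chromosome 1 and Cspg4 56865033 to 56899870 on chromosome 9. Abcc9 spans 142587862 to 142702315 on chromosome 6, Notch3 32120820 to 32166852 on chromosome 17 and Vtn 78499091 to 78502324 on chromosome 11. Exons of an antisense gene overlapped 6.03% of the exonic bases of Notch3 and 1.89% of those of Abcc9, and no other gene overlapped a member.

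**Figure D1:**
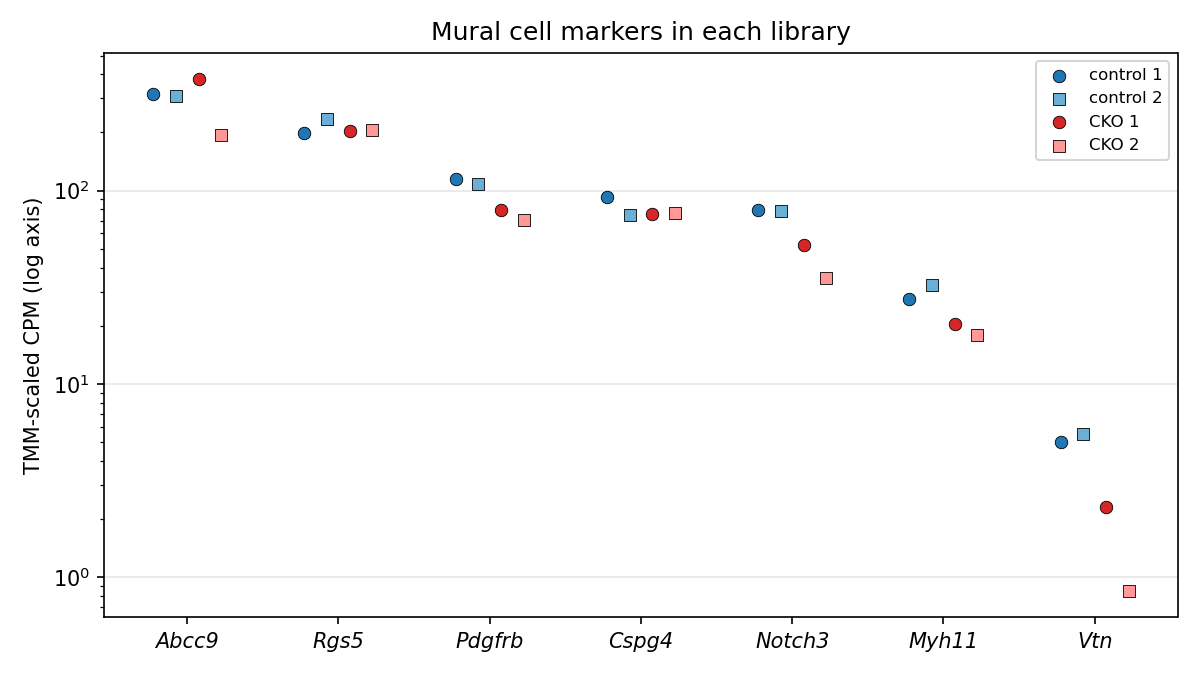
TMM-scaled CPM of the 7 mural cell markers (log axis) in each of the 4 libraries, ordered by the control mean; each point is 1 library. Both CKO libraries lie below both controls for Pdgfrb, Notch3, Myh11 and Vtn, while the groups overlap for Abcc9, Rgs5 and Cspg4.

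In TMM-scaled CPM the markers did not move as 1 group. Both CKO libraries lay below both controls for 4 members, Notch3, Vtn, Pdgfrb and Myh11, and above both for 0, against 29.7% of all 18157 genes tested below and 26.5% above. In edgeR's quasi-likelihood test 0 of 7 passed an adjusted p of 0.05 (background 0.011% of genes, the 2 pseudogenes Gm8730 and Gm9625), and 4 of 7 were lower with p under 0.05 before adjustment (background 11.2%). DESeq2 called 2 of 7 lower, Notch3 and Vtn (background 4.43% of the 17034 genes it gave an adjusted p), and limma-voom called 0. DESeq2 was also fitted with 1 library left out, which leaves its group with 1 sample. The calls of Notch3 and Vtn did not hold in every such fit, and only fold changes are given from those fits. These fits were added after seeing the data. The DESeq2 log2 fold changes without control 1 or 2 were -0.81 and -0.83 for Notch3, against -0.82 with all libraries, and -1.77 and -1.63 for Vtn, against -1.70. Without CKO 2 they were -0.58 and -1.18, and without CKO 1 they were -1.12 and -2.59. The median log2 fold change of the 7 was -0.57, against -0.02 over all genes tested. Without CKO 2 the log2 fold changes of Notch3, Vtn, Pdgfrb and Myh11 were -0.58, -1.18, -0.48 and -0.55, and without control 1, which held the T cell transcripts, -0.83, -1.79, -0.53 and -0.77. In bulk tissue, fewer mural cells and less of these RNAs per cell cannot be told apart.

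Notch3, the receptor, measured 79.6 and 78.4 CPM in controls 1 and 2 against 52.5 and 35.4 CPM in CKO 1 and 2. The controls were close together, and both CKO libraries lay well below them, the second farther than the first. The means were 79.0 ± 0.895 and 44.0 ± 12.0 CPM (SD, n = 2 each). The log2 fold change was -0.84 ± 0.22 (SE), with an adjusted p of 0.115 in edgeR. It fell in DESeq2 (adjusted p = 0.0255), and apart from the DESeq2 fits with a library left out the adjusted p ranged from 0.0255 to 0.643. In the authors' deposited table its log2 fold change was -0.824 with an adjusted p of 0.0247.

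Vtn, the matrix protein, had the largest fitted change of the 7 and the lowest level. It was at 4.996 and 5.50 CPM in the controls against 2.30 and 0.846 CPM in CKO 1 and 2, from 233, 269, 102 and 25 counts. Both CKO libraries lay below the controls, and they also lay apart from each other. The 25 counts allow 0.547 to 1.25 CPM (exact Poisson interval at 95%, counting error only), which does not reach the 1.88 that bounds CKO 1 from below. The log2 fold change was -1.72 ± 0.51 (SE; edgeR adjusted p = 0.135), from -1.18 without CKO 2 to -2.58 without CKO 1. It fell in DESeq2 (adjusted p = 0.0213), with values from 0.0213 to 0.625 apart from the DESeq2 fits with a library left out, and the authors' deposited table gave an adjusted p of 0.0204. Hepatocyte markers were low, with Alb at 0.107 CPM or less in every library. The 2 that passed the filter on low counts, Ttr and Apoa1, lay lower in both CKO libraries, as Vtn did, with log2 fold changes of -0.92 and -1.09. Ttr was at 0.751 and 1.45 CPM in the controls against 0.496 and 0.676 CPM in the CKO libraries (edgeR adjusted p = 0.309). Apoa1 was at 0.322 and 0.225 against 0.0677 and 0.203 CPM, which in CKO 1 is about the level of 3 counts. The part of hepatocyte transcripts in the Vtn values was not tested.

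The promoter windows of the pair that DESeq2 called and of Rgs5, a pericyte marker whose groups overlapped, are printed to show what precedes each gene. They run from 250 bases before to 50 after the RefSeq start in GRCm38.p6, 5′ to 3′ on the gene's strand. Windows of 5 of the 7 members were searched. No window was available for Myh11, and Pdgfrb was left out of the search, so its window was not examined. Capitals mark matches on either strand to TGGGAA, the core of the site bound by RBPJ, the DNA-binding partner of activated Notch, or to CTTTGA, a core of sites bound by the TCF/LEF partners of β-catenin. The CArG box, the site of serum response factor, was searched as well. No 2 of the marked matches overlap.
Notch3, chr17:32166841-32167140, reverse strand: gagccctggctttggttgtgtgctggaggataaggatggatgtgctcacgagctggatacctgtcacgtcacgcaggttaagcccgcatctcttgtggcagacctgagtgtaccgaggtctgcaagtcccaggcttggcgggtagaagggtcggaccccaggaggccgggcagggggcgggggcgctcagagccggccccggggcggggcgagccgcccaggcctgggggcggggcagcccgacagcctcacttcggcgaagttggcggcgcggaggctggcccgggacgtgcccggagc
Vtn, chr11:78498870-78499169, forward strand: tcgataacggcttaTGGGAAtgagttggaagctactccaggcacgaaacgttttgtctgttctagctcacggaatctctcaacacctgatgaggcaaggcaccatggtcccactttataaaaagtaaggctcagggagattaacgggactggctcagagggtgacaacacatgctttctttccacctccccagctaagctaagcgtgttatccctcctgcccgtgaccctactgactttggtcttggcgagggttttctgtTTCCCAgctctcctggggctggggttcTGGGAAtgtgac
Rgs5, chr1:169655251-169655550, forward strand: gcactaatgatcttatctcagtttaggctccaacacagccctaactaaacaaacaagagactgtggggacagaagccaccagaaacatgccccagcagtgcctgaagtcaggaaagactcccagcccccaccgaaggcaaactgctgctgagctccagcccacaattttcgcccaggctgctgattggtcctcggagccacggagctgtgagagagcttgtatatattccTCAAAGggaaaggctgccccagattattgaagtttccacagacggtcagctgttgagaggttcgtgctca

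The Vtn window held 3 matches to TGGGAA, at -236 and at 12 and 39 from the start, the match at 12 lying on the opposite strand. Of 32851 windows of the same length, 25.6% held at least 1 such match and 0.368% held 3 or more. The Rgs5 window held 1 match to CTTTGA, on the opposite strand, which 16.0% of windows hold. The window of Abcc9, whose groups overlapped, held 1 match to TGGGAA, at -221. The windows of Notch3 and Cspg4 held neither motif, and none of the 5 windows held a CArG box, found in 1.63% of windows. These are matches of letters in short windows and show no binding.

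Pdgfrb, the receptor for PDGF-B, was at 115 and 108 CPM in the controls against 79.6 and 70.3 CPM in the CKO libraries. The libraries of each group lay close together and the groups apart, and the log2 fold change was -0.57 ± 0.16 (SE; edgeR adjusted p = 0.129). DESeq2 did not call it (adjusted p = 0.0634), and over the alternatives its log2 fold change ranged from -0.31 to -0.81. Myh11, the contractile myosin of smooth muscle, was at 27.6 and 32.5 CPM in the controls against 20.3 and 17.9 CPM in the CKO libraries. Again no library of 1 group reached the other, with a fitted log2 change of -0.65 ± 0.19 (SE; adjusted p = 0.132 in edgeR and 0.0741 in DESeq2).

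Rgs5 was at 198 and 236 CPM in the controls against 202 and 207 CPM in the CKO libraries. Both of the latter lay between the controls, and the log2 fold change was -0.08 ± 0.18 (SE; edgeR adjusted p = 0.816). Cspg4 was at 93.1 and 74.7 CPM in the controls against 76.1 and 76.9 CPM in the CKO libraries, which again lay between the controls. Its log2 fold change was -0.13 ± 0.17 (SE; edgeR adjusted p = 0.685). Abcc9, by contrast, was split between the CKO libraries, at 380 CPM in the first, above both controls, and 194 CPM in the second, below both. The controls were at 315 and 310 CPM. Its log2 fold change of -0.12 ± 0.33 (SE; edgeR adjusted p = 0.850) thus averages unlike libraries, and was 0.29 without CKO 2 and -0.64 without CKO 1. Ryr2, the calcium release channel of cardiomyocytes, measured 1545 and 1494 CPM in the controls and was split the same way, at 1687 and 855 CPM. It was chosen from 9 cardiomyocyte markers after its values were seen. For 3 of the 9, both CKO libraries lay above both controls (background 26.5%). The summed CPM of the 9 cardiomyocyte markers was not split, at 68387 and 68994 CPM in CKO 1 and 2, both above the controls. Their mean on the log2(CPM + 1) scale, which weighs each gene alike, was 12.14 in CKO 1 and 11.84 in CKO 2. The controls were at 12.01 and 11.86 on that scale, so CKO 2 lay only just below control 2. Whether cardiomyocyte transcripts had a part in the Abcc9 values was not tested.

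**Figure D2:**
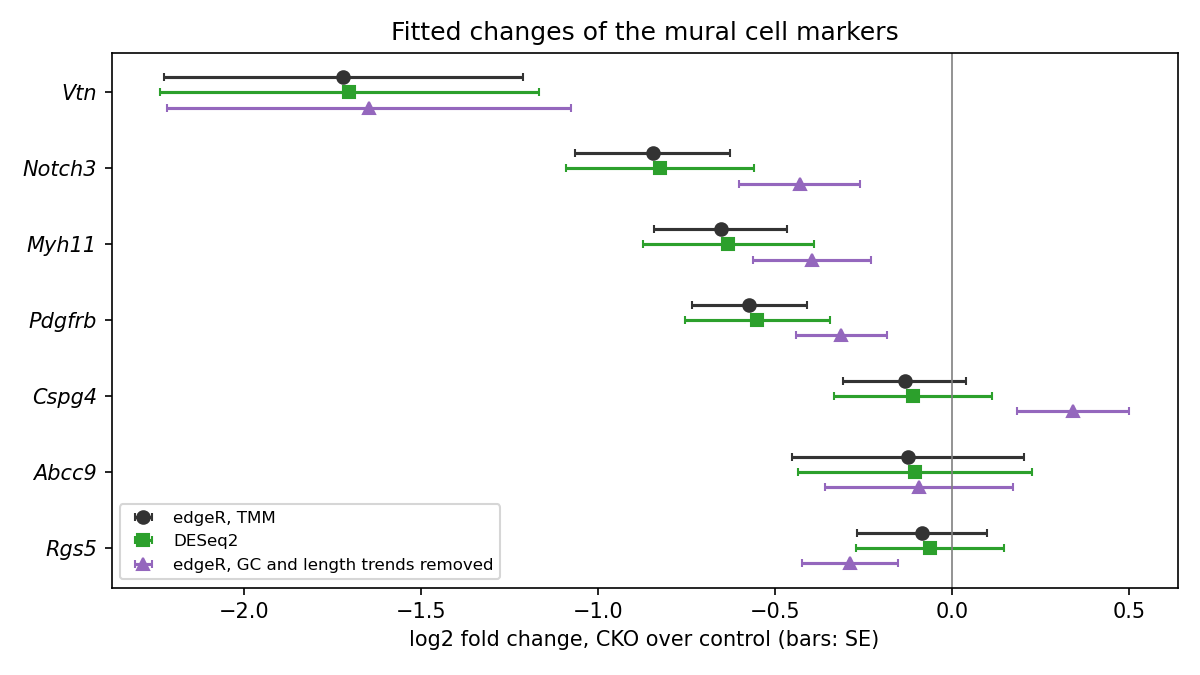
Log2 fold change of CKO over control with its SE for each marker, from edgeR with TMM scaling, from DESeq2, and from edgeR with trends in GC content and length taken out. Vtn lies lowest in all 3 fits (-1.72, -1.70 and -1.65), and Cspg4 is the only marker of the 7 whose sign differs among them (-0.13, -0.11 and 0.34).

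Ratios of raw counts within a library do not depend on any scaling between libraries. Per count of Rgs5, Notch3 had 0.403 and 0.332 counts in the controls against 0.259 and 0.171 in the CKO libraries. Pdgfrb had 0.582 and 0.458 against 0.394 and 0.340, and Myh11 0.139 and 0.138 against 0.101 and 0.0863. Vtn had 0.0253 and 0.0233 against 0.0114 and 0.00409. For these 4 the groups did not overlap, so within a library they lay lower relative to Rgs5. The same held relative to Cspg4, where Notch3 had 0.856 and 1.05 counts per count of Cspg4 in the controls against 0.689 and 0.461 in the CKO libraries, and Pdgfrb had 1.24 and 1.44 against 1.05 and 0.915. Both denominators are members whose CPM overlapped between groups, so the ratios follow the CPM differences above and are not separate evidence. The share of all genes whose ratios separate the groups is not given here. Nor are the ratios corrected for GC content, which was 41.1% for Rgs5, 59.2% for Cspg4 and 53.1% to 59.6% for the 4. With trends in GC content and length taken out, the log2 fold change was -0.29 for Rgs5. In that fit Pdgfrb was at -0.31, Myh11 at -0.39, Notch3 at -0.43 and Vtn at -1.65. Abcc9, the remaining member whose groups overlapped, was not used as a denominator. With 2 libraries a group an exact permutation test cannot reach 0.05, and no test was made of these ratios.

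**Figure D3:**
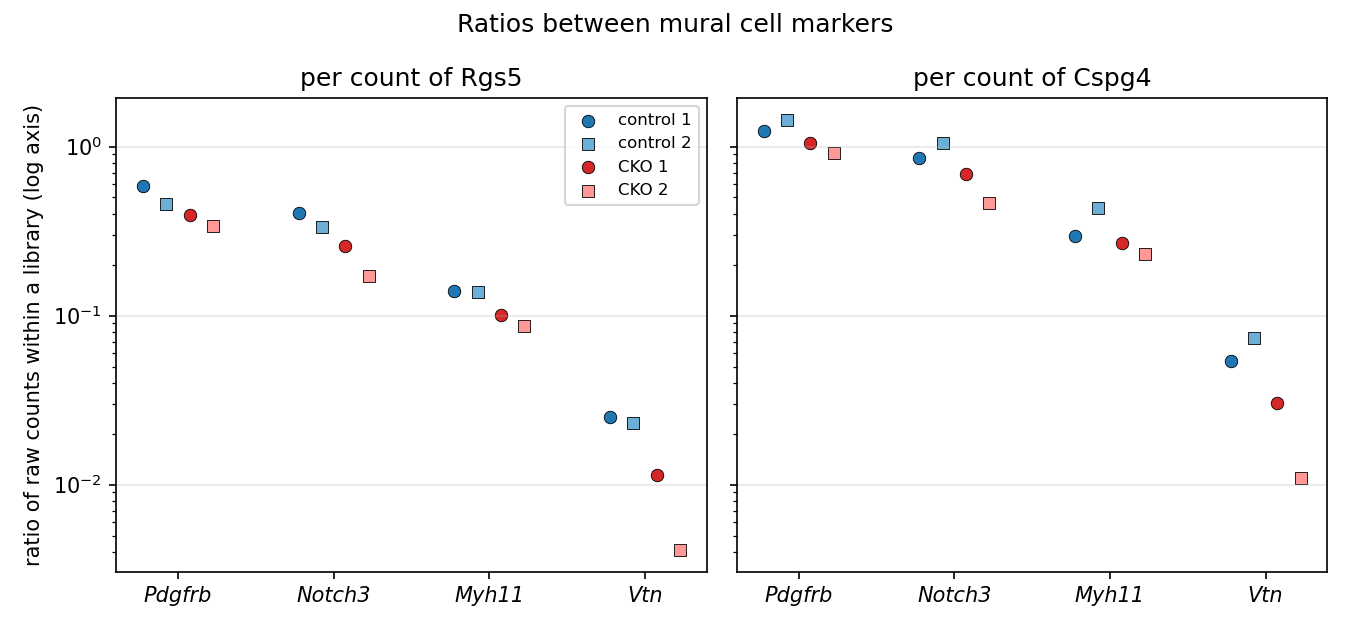
Counts of Pdgfrb, Notch3, Myh11 and Vtn divided by the counts of Rgs5 (left) or of Cspg4 (right) in the same library, on a log axis; each point is 1 library. For all 4 genes and both denominators the CKO points lie below the control points; for Notch3 over Rgs5 they are 0.259 and 0.171 against 0.403 and 0.332.

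The changes of protein-coding genes ran with GC content. Their median log2 fold change was 0.17 for transcripts of 40 to 45% GC (2811 genes) and -0.27 for those of 55 to 60% (2729 genes). The lower members lay on the GC-rich side, with 53.1% for Myh11, 54.9% for Pdgfrb, 55.3% for Vtn and 59.6% for Notch3, while Rgs5 had 41.1% and Abcc9 46.2%. Cspg4, at 59.2% GC, was close to Notch3 in composition and not in change. With trends in GC content and length taken out, the log2 fold changes were -0.43 for Notch3, -0.39 for Myh11, -0.31 for Pdgfrb and -1.65 for Vtn (adjusted p = 0.235, 0.254, 0.245 and 0.1999 in edgeR). Rgs5 stood at -0.29, close to Pdgfrb, and Cspg4 at 0.34 in that fit, and the median of the 7 was -0.31. There 1 of the 7 was lower with p under 0.05 before adjustment in edgeR, as were 1871 of the 18157 genes tested. With the trends left in it was 4 of 7.

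**Figure D4:**
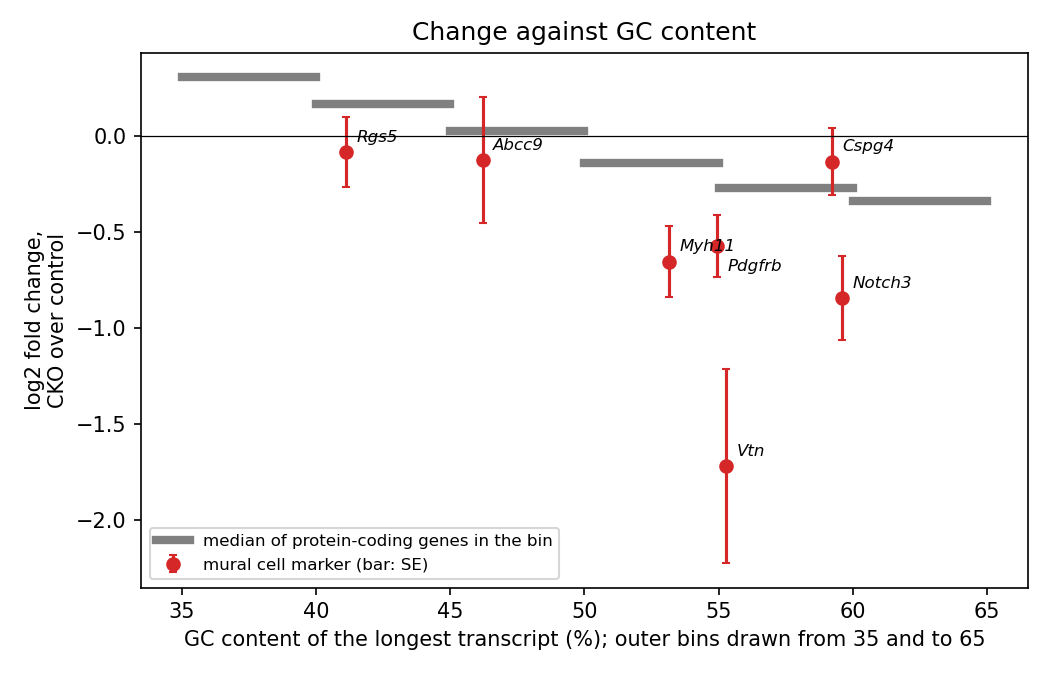
Log2 fold change of each marker (red, with SE) against the GC content of its longest transcript, over the median of protein-coding genes in each GC bin (grey bars). The grey bars step down from 0.31 to -0.34, and Rgs5, Myh11, Pdgfrb, Vtn and Notch3 lie below the bar at their GC content by more than their SE.

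Partners of the members were read from lists of their pathways. Among the 14 other Notch receptors, ligands, cofactors and targets, both CKO libraries lay below both controls for 8 and above both for 1 (backgrounds 29.7% and 26.5%). Their median log2 fold change was -0.37. edgeR called 0 (5 lower and 0 higher with p under 0.05 before adjustment, backgrounds 11.2% and 11.8%). DESeq2 called 2 lower (background 4.43%). Dll1, a ligand that arterial endothelium uses, was at 10.2 and 11.6 CPM in the controls against 4.06 and 3.58 CPM in the CKO libraries, a fitted log2 change of -1.51 ± 0.26 (SE; edgeR adjusted p = 0.0925). It fell in DESeq2 (adjusted p = 9.48e-05, the lowest of a range up to 0.615 over the alternatives). Jag1, the ligand through which endothelium engages Notch3, also fell in DESeq2 (adjusted p = 0.0405, against 0.115 in edgeR), from 29.0 and 36.4 to 18.0 and 20.6 CPM. Of the other receptors, Notch1 was at 91.5 and 82.2 CPM in the controls against 61.8 and 51.2 CPM in the CKO libraries (edgeR adjusted p = 0.127). Notch2 measured 57.8 and 62.3 CPM in the controls against 55.3 and 33.2 CPM in the CKO libraries. Notch4, the endothelial receptor, measured 65.1 and 50.6 against 36.6 and 60.5 CPM, so its groups overlapped. The target Heyl, which Notch3 is known to induce in mural cells, was at 34.95 and 37.6 CPM against 27.4 and 31.8 CPM (edgeR adjusted p = 0.344), and Hes1 was at 26.9 and 27.0 against 27.0 and 30.4 CPM. With trends in GC content and length taken out, the list's median was -0.16, with Dll1 at -1.32, Jag1 at -0.67 and Notch1 at -0.18.

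The 3 other subunits of ATP-sensitive potassium channels lay lower in both CKO libraries (background 29.7%). Kcnj8, the pore subunit that pairs with SUR2 in mural cells, was at 36.4 and 37.4 CPM in the controls against 26.3 and 28.3 CPM in the CKO libraries, a fitted log2 change of -0.44 ± 0.16 (SE; edgeR adjusted p = 0.178). The pore subunit Kcnj11 was at 92.9 and 86.6 against 74.1 and 68.9 CPM, and Abcc8, the SUR1 subunit, was at 96.0 and 94.4 against 63.2 and 68.9 CPM. None of the 3 passed in edgeR or DESeq2 (2 lower with p under 0.05 before adjustment in edgeR, background 11.2%). With GC content and length trends removed Kcnj8 stood at -0.42, Kcnj11 at -0.11 and Abcc8 at -0.14. Unlike Abcc9, none of them was high in CKO 1.

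Among the PDGF ligands, Pdgfa, whose product acts mainly on the receptor Pdgfra, lay lower in both CKO libraries, at 56.7 and 59.4 CPM in the controls against 52.8 and 53.0 CPM (edgeR adjusted p = 0.621). Pdgfb was at 46.0 and 46.1 CPM in the controls against 32.6 and 52.2 CPM in the CKO libraries, which lay on either side. Pdgfd, the other ligand of this receptor, was at 8.02 and 7.75 against 7.83 and 13.97 CPM (edgeR adjusted p = 0.447). The fibroblast receptor Pdgfra, the paralog of Pdgfrb, was at 51.0 and 60.6 against 63.8 and 48.9 CPM, a fitted log2 change of 0.015 ± 0.20 (SE) that was -0.22 with library totals alone. Of the 5 genes in this list 0 passed in edgeR or DESeq2, and edgeR had 0 with p under 0.05 before adjustment.

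The relatives of Rgs5 and the receptors of vitronectin were read next. Of 5 tested R4 family relatives of Rgs5, 0 passed in edgeR or DESeq2 (1 lower with p under 0.05 before adjustment in edgeR, background 11.2%). Rgs4, which is also in use as a pericyte marker, was at 7.36 and 8.32 CPM against 5.19 and 8.08 CPM. Rgs1, a leukocyte gene with the smallest p of that list, was at 1.61 and 1.27 against 0.406 and 0.812 CPM (edgeR adjusted p = 0.188). Of 8 vitronectin receptors and partners, edgeR called 0 (1 higher with p under 0.05 before adjustment, background 11.8%) and DESeq2 called 1 (background 5.58% higher). This was Itgb1, the β1 integrin chain, which rose in DESeq2 from 519 and 653 to 975 and 999 CPM (adjusted p = 0.00844, against 0.140 in edgeR and up to 0.728 over the alternatives). Of 14 mural cell recruitment signals, such as angiopoietins and TGF-β receptors, 0 passed in either tool (0 with p under 0.05 before adjustment in edgeR). S1pr1, the receptor with the smallest p there, was at 121 and 109 against 158 and 139 CPM.

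**Figure D5:**
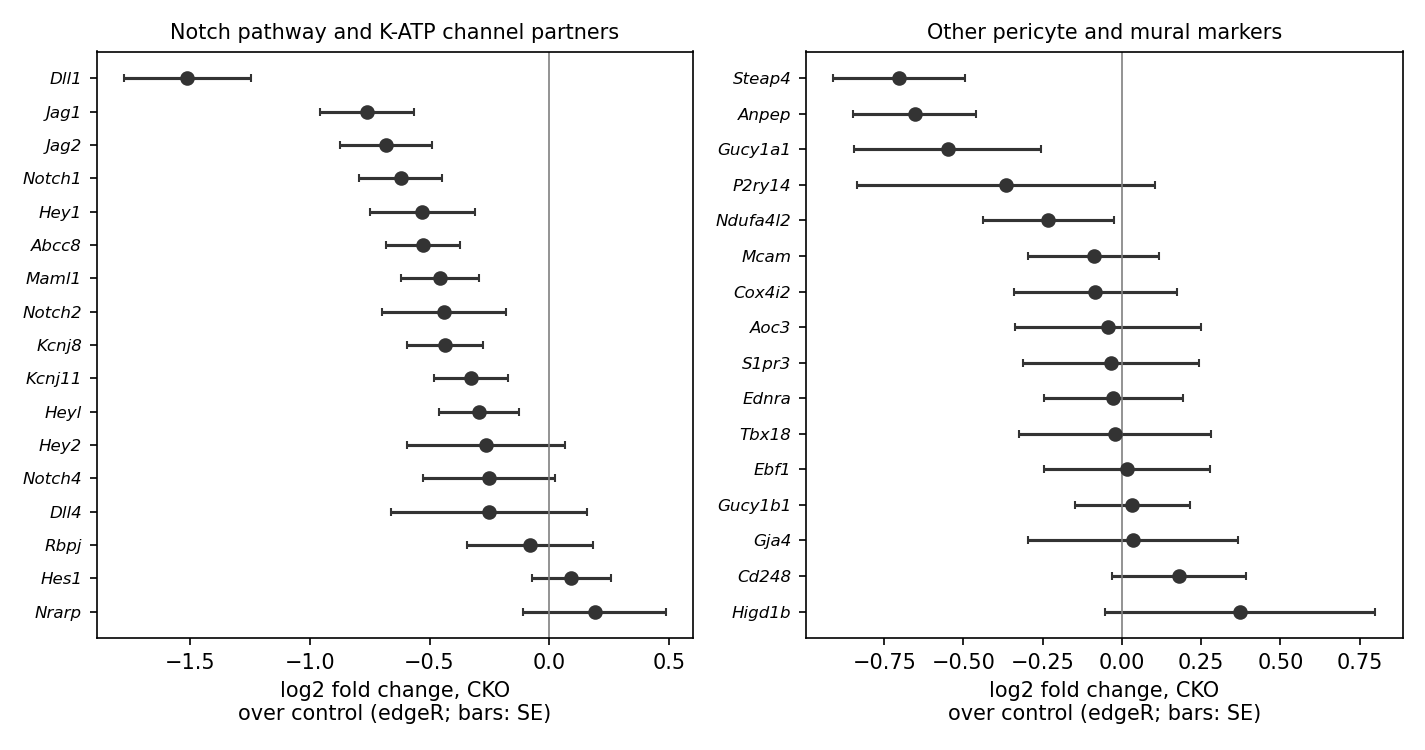
Log2 fold change of CKO over control (edgeR, with SE) for 14 Notch pathway genes with the 3 other subunits of ATP-sensitive potassium channels (left), and for 16 other pericyte and mural markers (right). Dll1 lies lowest on the left at -1.51, and most markers on the right lie near 0 with Steap4 lowest at -0.70.

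A wider set of mural markers had a median closer to 0, a difference that was not tested. Of 16 other pericyte and mural markers, both CKO libraries lay below both controls for 3 and above for 1 (backgrounds 29.7% and 26.5%). The median log2 fold change was -0.04, from -0.29 with library totals alone or without CKO 2 to 0.01 without control 2. Neither edgeR (2 lower and 0 higher with p under 0.05 before adjustment, backgrounds 11.2% and 11.8%) nor DESeq2 called any. Steap4, a metalloreductase, had the smallest p, at 26.0 and 27.6 CPM in the controls and 14.3 and 18.7 CPM in the CKO libraries (edgeR adjusted p = 0.136). The pericyte markers Higd1b (5.34 and 4.56 against 3.99 and 8.86 CPM) and Mcam (212 and 277 against 221 and 238 CPM) overlapped between groups.

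Smooth muscle contractile genes other than Myh11 were mixed. Of 8 tested, both CKO libraries lay below both controls for 2 and above for 2 (backgrounds 29.7% and 26.5%). The median log2 fold change was 0.087, from -0.15 to 0.29 over the alternatives. DESeq2 called 2 higher and 0 lower (backgrounds 5.58% and 4.43% of genes). edgeR called 0 (2 higher and 1 lower with p under 0.05 before adjustment, backgrounds 11.8% and 11.2%). Smtn, which encodes the cytoskeletal protein smoothelin, was the lower one, at 140 and 180 CPM in the controls against 117 and 95.6 CPM in the CKO libraries (edgeR adjusted p = 0.172). Mylk, the myosin light chain kinase, was at 32.5 and 31.8 against 26.5 and 28.8 CPM. Acta2, the smooth muscle actin that immature cardiomyocytes also make, was at 173 and 332 CPM in the controls against 1375 and 1137 CPM in the CKO libraries, a fitted log2 change of 2.31 ± 0.36 (SE; edgeR adjusted p = 0.0925). It rose in DESeq2 (adjusted p = 2.76e-09, against up to 0.615 over the alternatives), as did Myl9, a myosin light chain, from 250 and 378 to 1073 and 1692 CPM. Tagln, a standard marker of these cells, was at only 0.541 to 0.920 CPM. An antisense gene overlaps 62.4% of its exonic bases, and whether counting used strand is not given in the sources used here, so its level is uncertain. The nonmuscle relatives of Myh11 overlapped between groups, Myh9 at 254 and 250 against 251 and 292 CPM and Myh10 at 168 and 231 against 308 and 184 CPM.

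Markers of other cell types give the setting of these values. For 9 endothelial markers the median log2 fold change was -0.09, with 0 called in either tool (1 lower with p under 0.05 before adjustment in edgeR, background 11.2%). Their summed level was 1367 and 1423 CPM in the controls and 1238 and 1567 CPM in the CKO libraries. On the log2(CPM + 1) scale the mean of the 7 mural markers minus that of the endothelial markers was -0.75 and -0.79 in the controls and -0.89 and -1.66 in CKO 1 and 2, so the gap was widest in the last library. For 7 fibroblast markers the median was 0.01 and their sum ranged from 2360 to 3523 CPM in the controls and from 2694 to 3343 CPM in the CKO libraries, with 0 with p under 0.05 before adjustment in edgeR and 0 called by DESeq2. The cardiomyocyte markers summed to 57081 and 52319 CPM in the controls, with 1 of the 9 called higher by DESeq2, Actc1 (background 5.58%). The 6 macrophage markers had a median log2 fold change of -0.62, close in size to the -0.57 of the 7 mural markers. Both CKO libraries lay below both controls for 4 of the 6 macrophage markers (background 29.7%). Their summed level was 153 and 119 CPM in the controls and 97.4 and 120 CPM in the CKO libraries. DESeq2 called 2 of the 6 lower (Cd68 and Csf1r) and 1 higher (Mrc1), with backgrounds of 4.43% and 5.58%. edgeR called 0 (2 lower and 1 higher with p under 0.05 before adjustment, backgrounds 11.2% and 11.8%). The part of these cell types in the marker values was not tested.

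The summed level of the 7 markers was 833 and 845 CPM in the controls and 813 and 602 CPM in the CKO libraries. Abcc9 supplied the largest share, and without it the sums were 518 and 535 against 433 and 408 CPM. Of the protein-coding genes at a mean of at least 10 CPM, those whose profile over the 4 libraries lay closest to the mean profile of the 7 were Ubn2, Lysmd4, Ggcx, Ano8 and Ulk2. Their root mean square difference was 0.0109 to 0.0243 on the log2(CPM + 1) scale. Ubn2, a histone chaperone subunit, was at 76.0 and 76.2 CPM in the controls against 59.5 and 44.7 CPM in the CKO libraries. The members themselves differed from that mean by 0.083 (Pdgfrb) to 0.43 (Vtn). The 5 genes were picked as the closest of 9435 candidates, so their smaller distances say nothing about the members.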

How the data were processed

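RNA from ventricles was enriched for polyA and made into stranded libraries, per the labels' protocols. The authors used STAR 2.5.3a on GRCm38 and HTSeq 0.6.1, as the submitters' processing notes list them, and deposited unscaled counts of reads per gene. The authors' deposited table adds log2 fold changes and p-values, for which the notes name DESeq2 1.18. Its other 14 columns, 4 of them per sample, were not used. Identifiers of 53360 of 53465 genes matched GENCODE vM21. The gene models of the files can differ from it, which affects levels per length. The 5 HTSeq summary categories were left out of library sizes, and they held 30.3% to 36.8% of counted reads.

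Counts were tested in R 4.3.3 with edgeR 4.0.16 (filterByExpr, TMM, quasi-likelihood, Benjamini-Hochberg over all 18157 genes, threshold 0.05). TMM factors were 1.08, 1.10, 0.972 and 0.869. DESeq2 1.42.0 and limma 3.58.1 (voom) were alternatives. The main edgeR fit and the DESeq2 and limma-voom fits of all 4 libraries were tested on simulated data. The other alternatives were not. A count of 0 allows 0.0657 to 0.0882 CPM before TMM scaling, the level of 3 counts.

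The members and lists were chosen with earlier results of these data known. Genes named were the members, their family partners, Ctnnb1, from each list any past the edgeR threshold (up to 4) or else that with the smallest p, and the 5 closest profiles. Gm8730, Gm9625, Xist, Smtn, Mylk, Pdgfa, Apoa1, Kdm5d, Jag1, Heyl, Hes1, Pdgfb, Higd1b, Mcam, Myl9, Tagln, Csf1r, Mrc1, Ryr2 and Alb were chosen after their values were seen. The remaining lists had medians of 0.11 (nonmuscle myosins), 0.26 (epicardial), -0.78 (Schwann cell), -1.00 (hepatocyte, 2 tested), -0.38 (erythroid) and -6.92 (T cell, which rests on control 1).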

Additional observations from a re-analysis of the deposited data

How the results depend on the processing

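The direction of Notch3, Vtn, Pdgfrb and Myh11 was the same in every alternative tried: DESeq2, limma-voom, DESeq2's size factors, library totals alone, no filter, the replicate block, removal of GC content and length trends, and leaving out each library. The median of the 7 ranged from -0.31 to -0.81. Library totals alone moved the median of all genes from -0.02 to -0.26. Over all genes, 2 were called by edgeR, 1706 by DESeq2, 0 by limma-voom, 554 with no filter on low counts and 0 to 30 when 1 library was left out. DESeq2 called 2 members lower with all libraries and 0 to 4 when 1 was left out (4 without CKO 1, 0 otherwise). With 1 library left out its group has 1 sample, assumed to vary like the other group.

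Signs reversed for small changes. With 1 library left out, the log2 fold change of Rgs5 ranged from -0.21 to 0.058 (without control 2), that of Cspg4 from -0.27 to 0.033 (without control 1) and that of Abcc9 from -0.64 to 0.29 (without CKO 2). Cspg4 was at 0.34 with GC content and length trends removed. Ctnnb1 was at -0.0086, Pdgfra at -0.22 and Myh9 at -0.14 with library totals alone, and Notch4 at 0.22 with the trends removed. With 1 library left out, Pdgfd ranged from -0.00059 (without CKO 2) to 0.88, Pdgfra from -0.14 (without CKO 1) to 0.20, Notch4 from -0.65 to 0.12 (without CKO 1), Rgs4 from -0.59 to 0.10 (without CKO 1) and Myh10 from -0.063 (without CKO 1) to 0.64. Pdgfra was also below 0 without control 1, at -0.10. The cause was not tested.

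Libraries with the same number share only that number in the labels, and their deviations from the group means correlated at -0.14 across genes. With the replicate block edgeR called 18 genes and 0 members. With the numbers crossed, an alternative added after seeing the data, it called 941 genes and 1 member. Vtn rests on 25 counts in CKO 2, the lowest count among the members.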
